A study of Saccharomyces cerevisiae with 11 samples.

Results

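The genes described here encode the subunits of the yeast proteasome. They were taken by symbol from the R64 annotation of Saccharomyces cerevisiae as every nuclear protein-coding gene named PRE, PUP, RPN or RPT followed by a number, together with SCL1. This gave 34 of the 6002 nuclear protein-coding genes, 14 of the core particle (PRE, PUP and SCL1) and 20 of the regulatory particle (6 RPT and 14 RPN). The rule uses symbols and no measured value, although it was set with earlier results of these data known. The symbol rule also takes in RPN4, a transcription factor, and RPN14, an assembly chaperone, neither of which is a stable subunit. It misses SEM1, a small lid subunit with another kind of name.

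The study followed the maturation of small nucleolar RNA (snoRNA), and 4 of its 11 samples have a file here, each a list of ChIP-seq peaks. ChIP-seq sequences DNA that was crosslinked to a protein and pulled down with an antibody, so that a peak is a stretch of the genome where more of that DNA was found than its surroundings gave. Peaks were listed for Cbp20, a subunit of the complex that binds the cap of new transcripts made by RNA polymerase II (Pol II), and for Rnt1, the nuclear RNase III that cuts RNA hairpins, with 2 libraries for each protein. The other 7 samples, of RNA-seq, were left out. Both strains were MATa haploids with his3, leu2, met15 and ura3 deletions, were grown in YPD at 30 °C without further treatment and were precipitated with an antibody against the myc tag. The libraries labelled Cbp20-myc have a listed genotype that carries the tag on CBP80, the partner of Cbp20 in the same complex, and the Rnt1 libraries carry it on RNT1. Each list is from 1 tagged strain per protein, no untagged strain was used here, and the methods state that several precipitations were pooled for a library. The methods describe experiments in general as biologically replicated, but neither they nor the labels say which cultures the replicate libraries here came from.

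The proteasome is the barrel-shaped protease that degrades ubiquitin-tagged proteins. Its core particle holds the cutting sites of the beta ring subunits between outer rings of alpha subunits. The regulatory particle caps the barrel with a base, built around the RPT ATPases that unfold substrates, and a lid of RPN subunits that removes ubiquitin. In yeast, Rpn4 switches on most of these genes through an upstream sequence named the proteasome-associated control element (PACE).

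The PACE letters GGTGGCAAA were searched on both strands in the 250 bp before each start codon, to place the peaks relative to the sequence these genes are known to share. They were found before 27 of the 34 genes, 12 of the core and 15 of the regulatory particle, against 68 of all 6002 genes (1.13%). The 9 sequences below are those of the genes with the highest Cbp20 coverage that have a match, and of RPN2 and RPT2, to which the Rnt1 results return. They were read from the R64 genome, 5′ to 3′ on the strand that carries the match, with the PACE letters in capitals.
PRE6, chrXV:255218-255246, minus strand: tttcccttccGGTGGCAAAagaatcttcg
PUP3, chrV:349511-349539, minus strand: tggcactgccGGTGGCAAAaaagtgcaaa
PRE7, chrII:141150-141178, plus strand: aaactcaaagGGTGGCAAAaacaagcggt
RPT4, chrXV:813802-813830, plus strand: ctttcccttcGGTGGCAAAttccactatt
RPN11, chrVI:153259-153287, plus strand: ggacctccaaGGTGGCAAAttcacaagaa
RPN6, chrIV:286790-286818, minus strand: tggttccaagGGTGGCAAAtgttggtaga
RPT3, chrIV:1261495-1261523, plus strand: ctgaaagtaaGGTGGCAAAatagtaaatc
RPN2, chrIX:220801-220829, minus strand: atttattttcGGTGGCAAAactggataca
RPT2, chrIV:437906-437934, plus strand: gtttttctccGGTGGCAAAtgtctctttt

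The 27 matches began between 84 and 183 bp before the start codon, with a median of 120 bp, and 19 of them read in the direction of the gene. The base after the 9 letters was A in 18, T in 8 and C in 1 of them. Matches stood before 7 of 8 lid genes, all 6 RPT genes, 6 of 7 alpha ring genes and 6 of 7 beta ring genes. None of the 27 matches was touched by a Cbp20 peak in either replicate or by a Rnt1 peak in replicate 1. In Rnt1 replicate 2, 1 match was covered, the one before RPT2. At 120 bp before the start codon, only 5% and 3.62% of all genes lay under Cbp20 in replicates 1 and 2. For Rnt1 these shares were 2.48% and 3.57%. The few covered matches therefore do not set the members apart from all genes. The 7 genes without these letters in the window were PRE5, PUP1, RPN4, RPN8, RPN10, RPN13 and RPN14. The letters are a description of sequence, and binding of Rpn4 was not measured.

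Cbp20 lay over nearly the whole set. A peak of at least 1 bp was present in both replicates on 33 of the 34 genes, where the same was true of 44.9% of all nuclear protein-coding genes. The share of a gene's annotated bases that lay under peaks was used as its value, since the lists carry no height. The median proteasome gene had 95.6% of its bases under Cbp20 peaks in replicate 1 and 92.2% in replicate 2, against medians of 5.93% and 0% over all genes. At least 90% of the gene was covered in both replicates for 17 of the 34, while 14.1% of all genes reached this. The 12 members with no other annotated gene within 300 bp all had a Cbp20 peak in both replicates, with a median share of 92.9%.

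**Figure D1:**
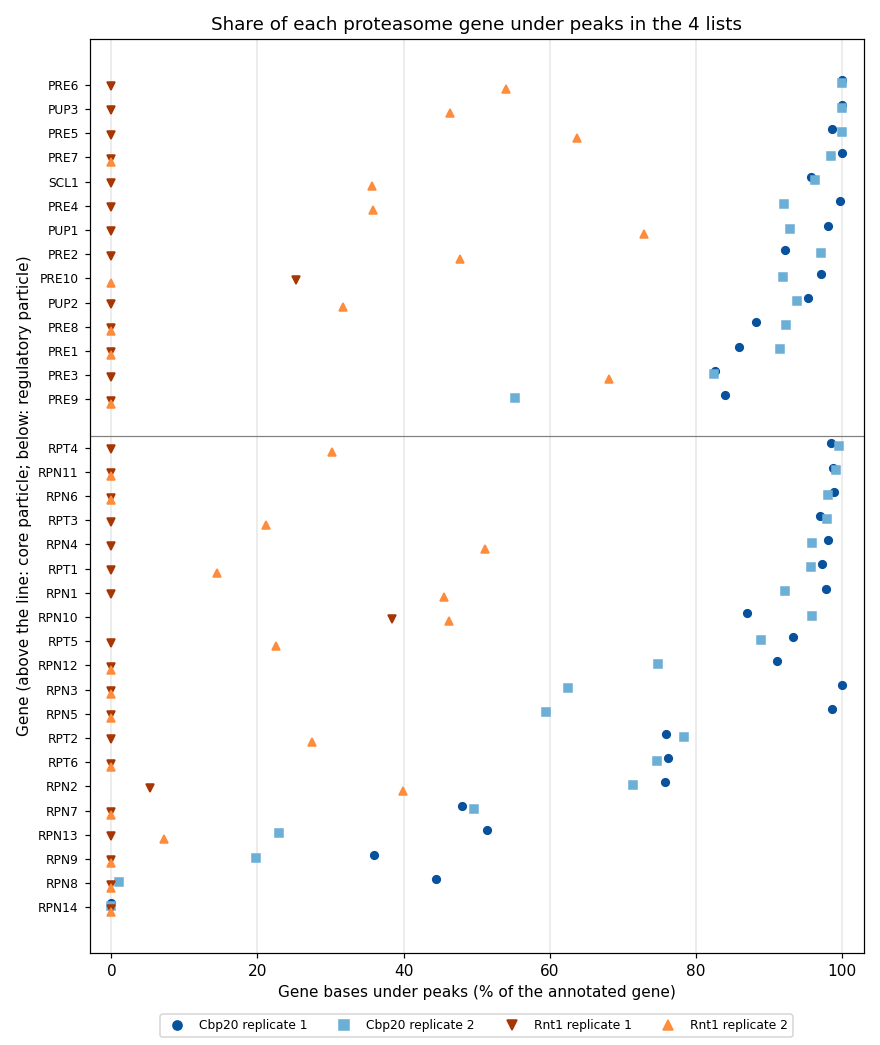
Share of each proteasome gene under peaks (x axis, % of annotated bases) in each of the 4 lists, with core particle genes above the line and regulatory particle genes below it, each ordered by mean Cbp20 share. The blue Cbp20 points of 29 genes lie at or above 50% in both replicates, against 27.4% of all genes. The brown triangles of Rnt1 replicate 1 lie at 0 for 31 genes, and the orange ones of replicate 2 are spread between 0% and 73%.

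In the core particle every gene had Cbp20 peaks over more than 50% of its length in both replicates. At least 50% was covered in both for 27.4% of all genes. The 4 highest were PRE6, PUP3, PRE5 and PRE7. PRE6 (YOL038W, chrXV:255337-256101, plus strand), an alpha ring subunit, was covered over 100% of its bases in both replicates. PUP3 (YER094C, chrV:348729-349346, minus strand), of the beta ring, was also at 100% and 100%. These were the 2 members that lay wholly under Cbp20 in both lists. PRE5 (YMR314W), an alpha subunit, had 98.7% and 100%, and PRE7 (YBL041W), a beta subunit, had 100% and 98.6%. The lowest core gene by the mean of replicates was PRE9 (YGR135W), the alpha subunit that yeast can live without, at 84% and 55.3%. PRE3, whose product is a beta subunit with a cutting site, had 82.7% and 82.5%, the lowest core value of replicate 1, and it is the only member with more than 1 coding exon.

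The regulatory particle was covered less evenly. Its 4 highest genes matched the core particle. RPT4 (YOR259C, chrXV:812395-813708, minus strand), a base ATPase, was covered over 98.6% and 99.6% of its bases. RPN11 (YFR004W, chrVI:153393-154313, plus strand), which encodes the deubiquitinase of the lid, had 98.8% and 99.2%. RPN6 (YDL097C), a lid scaffold, had 98.9% and 98.1%, and RPT3 (YDR394W), another ATPase, had 97% and 98%. At the other end, RPN7 (48% and 49.7%), RPN8 (44.4% and 1.08%) and RPN9 (36% and 19.8%), all lid genes, and RPN14 stayed below 50% in both replicates. RPN13, which encodes a ubiquitin receptor, crossed that line in replicate 1 only, with 51.4% and 22.9%.

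The 2 genes that are not stable subunits stood at opposite ends. RPN4 (YDL020C, chrIV:415113-416708, minus strand), the transcription factor, was covered over 98.2% and 96% of its bases. RPN14 (YGL004C, chrVII:490703-491956, minus strand), the assembly chaperone, had no base under a peak in any of the 4 lists. It was the only member without a Cbp20 peak, and with both genes left out all 32 remaining members had one in both replicates.

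Core genes had a median share under Cbp20 of 96.5% and 93.4%, and regulatory genes of 92.2% and 76.6%. The difference was 4.3 percentage points in replicate 1 and 16.7 in replicate 2 (SD 8.78, n = 2), so its size depended on the list. Taken between the medians of per-gene replicate means, it was 13 points. The core genes are also shorter and more alike, at 597 to 867 bp with a median of 764 bp, against 471 to 2982 bp with a median of 1298 bp for the regulatory genes. The part of gene length in this difference was not tested. When the members were split further, a step chosen after their values were seen, the low replicate 2 values lay mostly in the lid. The median of the 8 lid genes was 94.9% in replicate 1 and 61% in replicate 2, whereas that of the 10 genes for the base and the ubiquitin receptors was 90.1% and 90.6%.

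For single genes the Cbp20 replicates lay close together. The difference between them had a median of 3.31 percentage points and was within 10 points for 27 of the 34 members. The 7 larger differences were those of PRE9, RPN3, RPN5, RPN8, RPN9, RPN12 and RPN13, and in each of them replicate 1 was higher. RPN8 had the largest, at 43.4 points. RPN3, a lid gene, had 100% and 62.5%, and RPN5, also of the lid, 98.7% and 59.5%. In both, replicate 2 listed 2 peaks with a gap between them where replicate 1 listed a single peak. Of all member bases under Cbp20 in either replicate, a fraction of 0.892 was shared by both, compared with 0.753 over all genes.

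Peaks began soon after the start codon. The upstream edge of the Cbp20 peaks lay a median of 39 bp after the first base of the start codon in replicate 1 and 48 bp after it in replicate 2, where all genes with a Cbp20 peak had medians of 73 and 67 bp. The edge lay no more than 150 bp into the gene for 27 and 26 of the 33 genes with a peak. This count was not made over all genes, whose median edges also lay within 150 bp, so it does not set the members apart. The first base of the gene was under a peak for only 5 of the 33 in each replicate (15.2%), against 28.8% and 26.4% of all genes that had a Cbp20 peak. The 250 bp before the start codon, where the PACE letters are, had a mean of 2.25% and 1.13% of bases under Cbp20 in the members and 6.88% and 5.38% in all genes. The medians were 0% in both. Among the gene sets described below, mitochondrial ribosomal protein genes (4.09% and 2.99%) and assembly and associated genes (0% and 0%) also had lower means than all genes. Cytoplasmic ribosomal protein genes (21.6% and 24.6%) and ubiquitin and delivery genes (16.2% and 15.7%) had higher ones.

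The downstream side was different. Cbp20 peaks had their downstream edge at a median of 129 bp (replicate 1) and 41 bp (replicate 2) past the stop codon, and the last base was covered for 26 and 21 of the 33 genes (78.8% and 63.6%). Over all genes with a Cbp20 peak these edges had medians of 15 and -33 bp, and the last base was covered for 53.1% and 41.1%. The last base was covered in both replicates, and the first base in neither, for 17 of the 33 members with a Cbp20 peak. Among all genes with a Cbp20 peak in both replicates 21.8% had this form. In the gene sets described below, counted the same way, it was found in 13 of 32 mitochondrial ribosomal protein genes. The same held for 6 of 10 ubiquitin and delivery genes and 4 of 5 assembly and associated genes, but for only 2 of 138 cytoplasmic ribosomal protein genes. The form is thus not particular to the members. Averaged over members, the last part of 3 equal parts of the gene was covered over 91.6% and 82.7% and the first over 72% and 70.4%, a difference of 19.6 and 12.3 points. Over all genes the corresponding values were 34.6% and 31.6% for the last part and 28.6% and 28.2% for the first. Genes without a peak enter these means as 0, and only 51.4% and 49.2% of all genes had a Cbp20 peak. Mitochondrial ribosomal protein genes had 39.7% and 31.7% in the last part and 20.2% and 20.2% in the first, so such a rise was not particular to the members. Cytoplasmic ribosomal protein genes were near 100% in both parts.

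**Figure D2:**
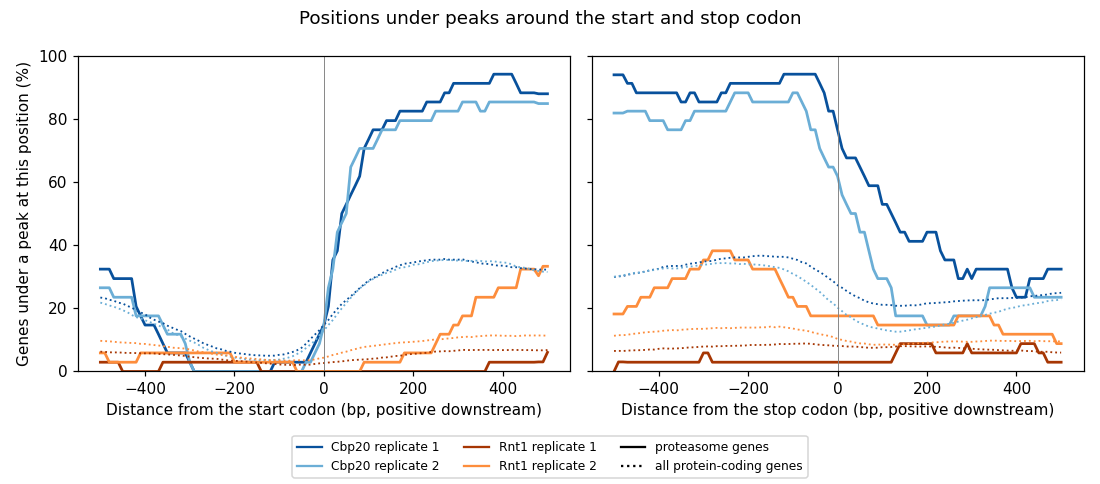
Share of genes under a peak (y axis, %) at each distance from the start codon (left) and the stop codon (right), in bp along transcription, for the 34 proteasome genes (solid) and all 6002 protein-coding genes (dotted) in the 4 lists. Around 200 bp before the start codon no proteasome gene was under Cbp20 in either replicate, at 100 bp after it 73.5% and 70.6% were, and at 150 bp past the stop codon 44.1% and 17.6% were, peaks of neighbouring genes included.

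Some of this downstream reach belongs to peaks that also cover a neighbouring gene. In Cbp20 replicate 1 12 members shared a peak with another gene, and in replicate 2 6 did (PUP2, RPN8, RPN10, RPN13, RPT4 and SCL1). The longest reach was that of SCL1, an alpha subunit, where the peak ran 1627 and 1619 bp past the stop codon over ERG4. RPN8 is the clearest case in which the shared peak carried the call, since in replicate 2 its only Cbp20 peak covered 1.08% of RPN8 and went on over GCD1. No member shared a peak with a snoRNA, snRNA or tRNA gene.

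**Figure D3:**
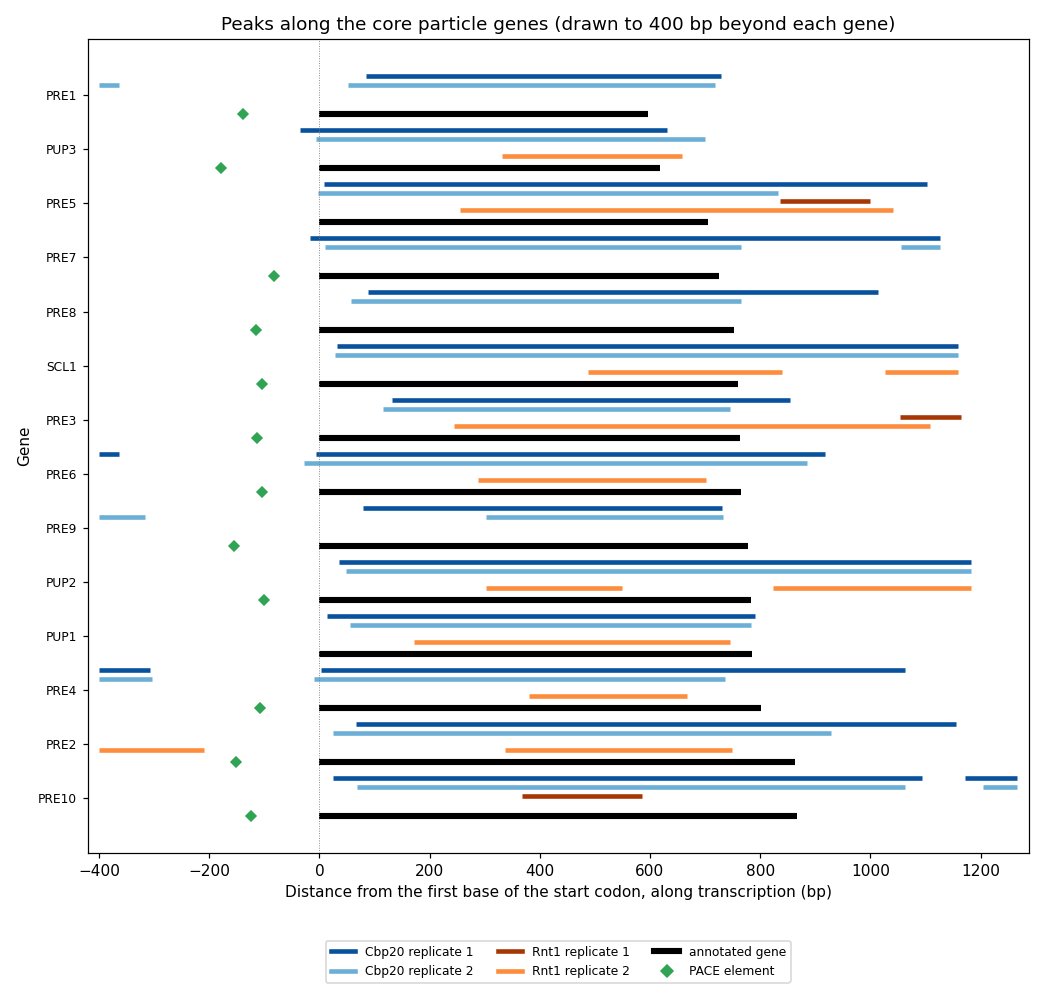
Peaks of the 4 lists along the 14 core particle genes, ordered by length, drawn as lines from 400 bp before to 400 bp after each gene (x axis, bp from the first base of the start codon), with the gene in black and the PACE match as a green diamond. Cbp20 peaks in blue start close to the start codon, with median edges of 28 and 38 bp for these genes, and the orange Rnt1 peaks of replicate 2 begin further inside, at a median of 302 bp.

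Few of these genes had a Rnt1 peak in both libraries. A peak was present in both replicates on 2 members, RPN10 and RPN2 (5.88%), where 12.9% of all protein-coding genes had one. With 34 genes, this count does not set the members apart from all genes. The 2 libraries disagreed over the set. In replicate 1 only 3 members had a Rnt1 peak (13.5% of all genes), and in replicate 2 there were 19 (20.6% of all genes). A peak in replicate 2 alone was the state of 17 members, compared with 7.73% of all genes. The median member had 0% of its bases under Rnt1 in replicate 1 and 17.8% in replicate 2, and medians over all genes were 0% in both.

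The replicate 2 list is the larger one, with 1741 peaks over 9.98% of the nuclear genome against 1238 over 5.92% in replicate 1. The Cbp20 lists hold 3801 and 3648 peaks over 23.1% and 21.6%. No read totals come with the lists, and the part of sequencing depth in the Rnt1 difference was not tested. The fraction of covered bases shared by the lists was lower within the members than over all genes. Rnt1 peaks covered 680 bp of the members in replicate 1 and 8701 bp in replicate 2, of which 461 bp were shared, a fraction of 0.0517 of the bases under either. Over all genes this fraction was 0.508. With only 680 bp in replicate 1 the fraction in the members could not be large, and most of these bases were shared. Over all genes, 475088 of the 497161 bp of replicate 1 were shared.

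RPN10 (YHR200W, chrVIII:499079-499885, plus strand), which encodes a ubiquitin receptor, had the highest mean Rnt1 share of the members. Rnt1 peaks lay over 38.4% of its bases in replicate 1 and 46.2% in replicate 2, 42.3% ± 5.52 (SD, n = 2), and Cbp20 peaks over 87% and 96%. The Rnt1 peaks spanned chrVIII:499576-500095 and chrVIII:499513-500247, so they covered the end of RPN10 and ran 210 and 362 bp past its stop codon. Both also overlapped PPX1, the next gene, and the signal cannot be assigned to either gene alone. RPN2 (YIL075C, chrIX:217863-220700, minus strand), a large base scaffold, had 5.32% and 39.9% under Rnt1 and 75.8% and 71.4% under Cbp20. Its only peak in replicate 1 was 151 bp wide at chrIX:218530-218680, inside the wider of the 2 peaks of replicate 2 at chrIX:218440-219008. RPN2 had no other annotated gene within 300 bp.

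The other member with a Rnt1 peak in replicate 1 was PRE10 (YOR362C), an alpha subunit. It had 25.3% in replicate 1 and 0% in replicate 2, with 97.2% and 92% under Cbp20. PRE10 was thus the only member whose Rnt1 share was higher in replicate 1. In all 19 others with a peak, replicate 2 was higher.

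Of the 17 genes with a peak in Rnt1 replicate 2 alone, 9 belong to the core. PUP1, a beta subunit with a cutting site, was the highest of all members at 73%, with 98.2% and 92.9% under Cbp20. PRE3, which also encodes a cutting subunit, had 68.1%, and PRE5 had 63.7%. For these 3 genes Rnt1 replicate 1 gave 0%, so the spread between the replicates was as large as the value itself. PRE6 had 54.1% in replicate 2, and PRE2, the beta subunit that cuts after hydrophobic residues, had 47.7% with 92.2% and 97.2% under Cbp20. PUP3 had 46.3%. PRE4, a beta subunit, had 35.8% (Cbp20 99.8% and 92.1%). SCL1 had 35.7% (95.8% and 96.3%) and PUP2, an alpha subunit, had 31.7% (95.4% and 93.9%). PRE1, PRE7, PRE8 and PRE9 had no Rnt1 peak in either list.

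The other 8 belong to the regulatory particle. RPN4 was the highest of them at 51.1%, under 3 separate Rnt1 peaks that lay between 83 and 437, 601 and 850, and 1261 and 1471 bp after its first base. RPN1, the other large base scaffold, also had 3 peaks in replicate 2, over 45.5% of its bases (Cbp20 97.9% and 92.2%). These were the 2 members with the most Rnt1 peaks. The ATPase genes were lower. RPT4 had 30.2%, RPT2 had 27.4% (Cbp20 75.9% and 78.4%), and RPT5 had 22.5% (93.3% and 89%). RPT3 had 21.2%, RPT1 had 14.4% (97.3% and 95.8%), and RPT6 alone among the RPT genes had none. RPN13 had 7.22%, from a peak that it shares with URA4.

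**Figure D4:**
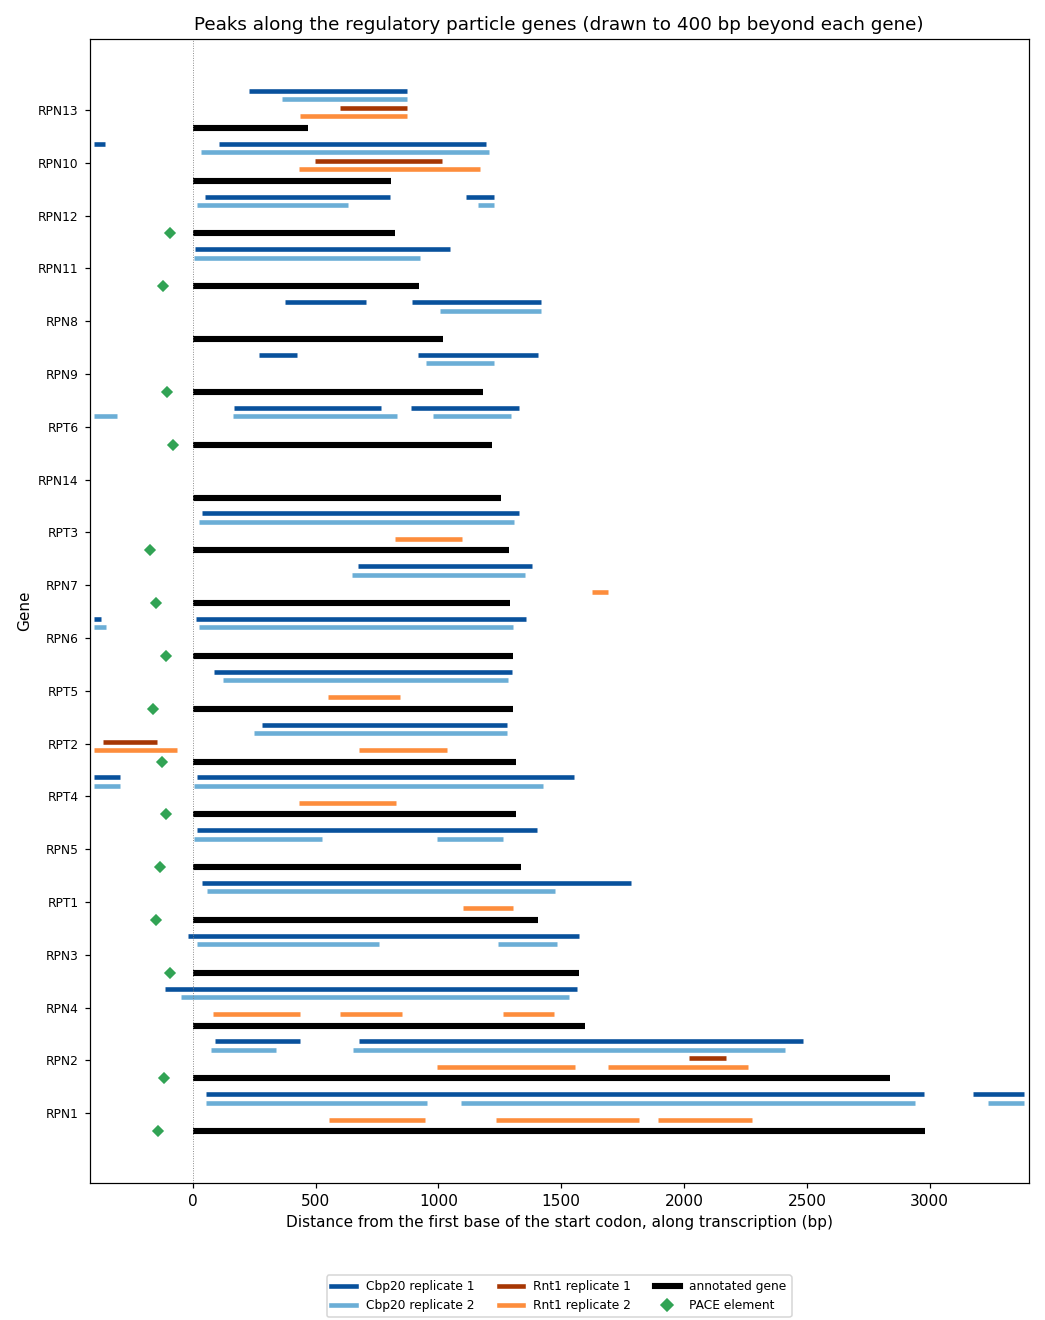
Peaks of the 4 lists along the 20 regulatory particle genes, drawn as for the core particle (x axis, bp from the first base of the start codon; gene in black, PACE match as a green diamond). RPN14 has no peak, and the Cbp20 peaks of RPN7 begin 671 and 649 bp after the start codon. The 8 lid genes (RPN3, RPN5 to RPN9, RPN11 and RPN12) have no Rnt1 peak on the gene, where 13.5% and 20.6% of all genes have one.

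Split by place in the complex, again after the values were seen, the 19 genes with a Rnt1 peak in replicate 2 were 4 of 7 alpha ring genes, 5 of 7 beta ring genes and 10 of 12 regulatory genes outside the lid. None of the 8 lid genes had a Rnt1 peak in either list, where 13.5% (replicate 1) and 20.6% (replicate 2) of all genes had one. With so few genes, this count does not set the lid apart from all genes. By particle, the median share in replicate 2 was 35.8% for core and 3.61% for regulatory genes, a difference of 32.2 points, and in replicate 1 both medians were 0%. No difference of this kind could be set against replicates, since a single list carries it.

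Rnt1 peaks sat further inside the genes than Cbp20 peaks. The order was the same over all genes with a peak, where the upstream edge in replicate 2 had a median of 192 bp for Rnt1 and 67 bp for Cbp20. On the members the replicate 2 peaks were also narrower for Rnt1, with median widths of 388 and 869 bp. In replicate 2 the upstream edge of Rnt1 on the members lay a median of 432 bp after the start codon, with a range of 83 to 1102 bp. The downstream edge had a median of -115 bp from the stop codon, inside the gene. The first base was covered in 0 of the 19 genes and the last base in 6, against 21.2% and 50.1% of all genes with a peak in this list. The first of 3 equal parts of the gene had a mean of 4.29% under Rnt1, the middle 32.2% and the last 30.8%. Nearly all Rnt1 bases in the members also lay under Cbp20, 100% in replicate 1 and 99.8% in replicate 2. Over all genes these were 97.5% and 94.4%. Cbp20 peaks covered 31931 and 29364 of the 37805 bp of the members, so most member bases lay under Cbp20 with or without Rnt1. Members with a Rnt1 peak in replicate 2 had a median Cbp20 share of 95.5% and the 15 others 81.3%, and the ranges overlapped widely, from 37.2% to 100% and from 0% to 99.3%.

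Some Rnt1 peaks lay beside the genes. In replicate 1 a peak lay wholly past the stop codon of PRE3, PRE5 and RPN13, and each of these overlapped the replicate 2 peak that reached from inside the gene across the stop codon. Past RPN7 both lists held a peak that did not touch the gene. Before RPT2, the only member with a small non-coding gene within 500 bp, both Rnt1 lists had a peak over the tRNA gene YNCD0006W (chrIV:437772-437853), at 147 to 367 bp before the start codon in replicate 1 and 65 to 420 bp in replicate 2. The latter is the peak that covers the PACE letters of RPT2. It ended before the gene and does not enter the RPT2 share.

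The next comparison asked whether each gene was covered more by Cbp20 than by Rnt1. Both Cbp20 shares lay above both Rnt1 shares for 33 of the 34 members, and for 40.4% of all genes. Only a gene with a Cbp20 peak in both lists can meet this rule, so the count largely repeats the Cbp20 count above. Of the 2692 such genes among all genes, 2424 met it, and of the 32 mitochondrial ribosomal protein genes with Cbp20 in both, 31 did. RPN14, at 0 in all 4 lists, was the exception. The smallest two-sided p that an exact permutation test over 2 against 2 libraries can give is 0.33, so no single gene could pass a threshold of 0.05. The Cbp20 lists also cover more of the genome, so the shares compare lists and not amounts of protein.

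Rnt1 is known to cut at hairpins with an AGNN loop. Stems of 8 pairs closed by such a loop on the sense strand were counted as letters in the genes. The 37805 bp of the members held 0, while 4.08% of all genes held at least 1. At the rate of all genes, 0.288 hairpins per 10 kb, a set of this length would hold 1.09 on average, so a count of 0 does not set the members apart. Shorter or mismatched stems were not searched, and no match says only that these letters were not found.

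**Figure D5:**
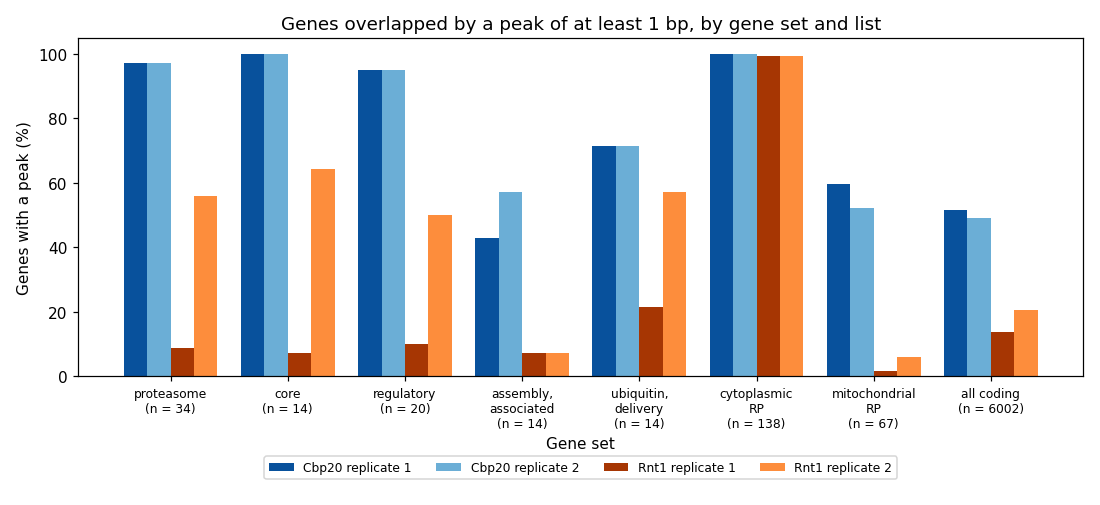
Share of genes with a peak of at least 1 bp (y axis, %) in each of the 4 lists, for the proteasome genes, their core and regulatory parts, 2 lists of related genes, the cytoplasmic and mitochondrial ribosomal protein (RP) genes, and all protein-coding genes. The 2 Rnt1 bars of the proteasome genes differ (8.82% and 55.9%), and those of the cytoplasmic RP genes are equal (99.3%). The assembly and associated genes have lower Cbp20 bars (42.9% and 57.1%) than the proteasome genes (97.1%), near those of all genes (51.4% and 49.2%).

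Genes that serve the proteasome without being part of the rule were read from a list of 14 assembly and associated factors. Of these, 5 had a Cbp20 peak in both replicates (35.7%, near the 44.9% of all genes). UMP1, the chaperone that matures the core particle, was covered over 87% and 94.4%, and SEM1, the lid subunit missed by the symbol rule, over 64.1% and 60.4%, both with 0% under Rnt1. The chaperone genes IRC25 (43.7% and 38.5%) and ADD66 (25.2% and 49.3%) were lower. HSM3, NAS2 and NAS6, which encode chaperones of the base, had no peak in any list, as RPN14 had none. POC4 alone in this list had Rnt1, at 61.3% and 82.1%, under a peak it shares with the U3 snoRNA gene SNR17B.

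A list of 14 genes for ubiquitin and its delivery stood between the assembly list and the proteasome genes for Cbp20. A Cbp20 peak in both replicates was present on 10 of them (71.4%, against 44.9% of all genes). A Rnt1 peak in both was present on 3 (21.4%, against 12.9% of all genes, 5.88% of the proteasome genes and 7.14% of the assembly list). With 14 genes, the Rnt1 count does not set this list apart from all genes. CDC48, the ATPase that extracts ubiquitin-tagged proteins, had 99.4% and 98.2% under Cbp20 and 23.7% and 88.7% under Rnt1. UBI4, the polyubiquitin gene, had 98.3% and 99.5% under Cbp20, with 0% and 87.6% under Rnt1. UBA1, which encodes the enzyme that activates ubiquitin, had 87.1% and 84.4% under Cbp20 and 3.19% and 39.4% under Rnt1, where the replicate 1 peak is shared with SNR64. The third with Rnt1 in both, UFD2, was touched by a peak that also covers RPL35A, over 1.04% and 0.936% of its bases. As in the proteasome genes, Rnt1 replicate 2 held more of this list, 8 of 14 against 3, where all genes had 20.6% and 13.5%.

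The proteasome genes were last set beside the genes of the other large complexes. All 138 cytoplasmic ribosomal protein genes (taken by symbol, which takes in RPP1, a protein of RNase P) had a Cbp20 peak in both replicates, and 137 had a Rnt1 peak in both. Their median Rnt1 share was 83.7% in replicate 1 and 96.8% in replicate 2, where the proteasome genes had 0% and 17.8%. Of the 67 mitochondrial ribosomal protein genes, 32 had a Cbp20 peak in both replicates (47.8%, near the 44.9% of all genes), with medians of 29.2% and 18.7%. A Rnt1 peak in both was present on 0 of them, against 12.9% of all genes. PACE letters stood before 0 of the 138 and 0 of the 67 genes.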

How the data were processed

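The authors aligned ChIP-seq read pairs to sacCer3 with Bowtie2, kept reads of mapping quality 30 or more and called peaks with MACS2 at q < 0.05. Tool versions and the use of input DNA as background are not given in the sources used here. The deposited lists, 1 per library, hold chromosome, start and end only, so depth is unknown and neither heights nor confidence limits could be given. All peaks lay inside the R64 chromosomes.

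Overlaps, edges and sequence matches were computed with Python 3.11.15 and numpy 2.4.6. The counts of covered bases and the division of genes into 3 parts were tested on simulated peaks, and the edges and sequence matches were not. A gene carried a peak when at least 1 bp of its annotated span, introns included, overlapped. Libraries were grouped by label. The labels number only the second replicates, so the others are called replicate 1. Members, lists and alternatives were chosen with earlier results of these data known. No test across genes was made, since genes of 1 library are not replicates. Named with their values were members with Rnt1 peaks, the 4 core and 4 regulatory members highest in Cbp20, members without Cbp20, RPN4, RPN14 and members within 500 bp of a small non-coding gene. Others were named after their values were seen.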

Additional observations from a re-analysis of the deposited data

How the results depend on the processing

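Counts and shares cannot change sign. The differences between particles and between parts of the gene kept their sign, except that the Rnt1 difference between particles fell to 0 in some runs. The median Rnt1 share, 10.9% on the mean of replicates, was 0% with the wider 50% of each list's peaks. The number of members with a Rnt1 peak in both replicates, 2, was 0 when peaks had to cover at least 50% of the gene, 1 with the wider 50% of each list's peaks and 5 with genes extended by 150 bp at each end, which added PRE5, RPN13 and RPT2. Counted in 1 Rnt1 list alone it was 3 to 19. The median Cbp20 share, 93.1% on the mean of replicates, was 74.5% with the extended genes and ranged from 92.2% to 95.6% in the single lists. The Cbp20 difference between the last and the first part of the gene, 16 points, was 29.3 points with the extended genes. The number of members with Cbp20 in both replicates, 33, was 29 when peaks had to cover at least 50% of the gene and 31 with the wider peaks. Of all genes, 27.4% met the 50% rule. The core minus regulatory difference was 4.3 to 16.7 points for Cbp20 and 0 to 32.2 points for Rnt1 in the single lists, and 0 points for Rnt1 with the wider peaks. No paired analysis was possible because the results come from no test and the labels number only the second replicates. With 2 lists per protein and no score or depth, a gene outside the peaks is one that did not pass the caller's threshold.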

Other observations

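The PACE letters also stood within 250 bp before 41 genes outside the set, counted after the data had been seen. Of these, 26 (63.4%) had a Cbp20 peak in both replicates, with a median Cbp20 share of 30.9%, and 16 (39%) had a Rnt1 peak in replicate 2. Among the proteasome genes, the 27 with the letters had a median Cbp20 share of 94.6% and 14 (51.9%) had a Rnt1 peak in replicate 2. The 7 without had 91.5% and 5 (71.4%). Of the related genes, ECM29, a proteasome-associated protein, and CDC48, UBA1 and UBI4 also had the letters.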
